A study of Homo sapiens with 8 samples.

Results

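The genes described here are 10 immediate early transcription regulators: the AP-1 subunits FOS, FOSB, FOSL1, JUN, JUNB, JUND and ATF3, the zinc finger factor EGR1, the nuclear protein IER2 and the oncogene MYC. They were chosen by name, and their peaks are the rows of 4 m6A peak lists that carry one of these gene names. Of the 10 genes, 8 had a row in at least 1 list, among 8758 genes with a peak in any list. FOS and ATF3 had no row in any list. The 8 listed genes held 83 peaks over the 4 lists.

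The lists come from MeRIP-seq, in which RNA fragments are pulled down with an antibody against N6-methyladenosine (m6A) and sequenced beside RNA that was not pulled down (input). The material was U2OS and 143B, established human osteosarcoma lines grown in serum. The labels name lentiviral infection for the METTL14 hairpin and do not say how the control hairpin was delivered. The groups are U2OS with a short hairpin RNA against METTL14 (shMETTL14), U2OS with the control hairpin (NC), 143B with shMETTL14 and 143B with NC. METTL14 is the RNA-binding partner of METTL3 in the enzyme that writes m6A on messenger RNA. Each group has 1 input and 1 pulled-down library, so no value below can be checked against a replicate and groups were not tested against each other. The labels do not say whether infected cells were kept as a pool or as clones.

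Immediate early genes are switched on by growth factors, serum or stress without new protein synthesis, and most of their messenger RNAs are short-lived. FOS-type and JUN-type proteins pair through leucine zippers and bind AP-1 sites, EGR1 binds GC-rich promoter elements, and MYC binds E-boxes with its partner MAX. In messenger RNA, m6A is known to concentrate around stop codons and in 3' UTRs, where it can shorten the life of the transcript through reader proteins.

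Each row gives a peak on 1 transcript isoform, its place on build hg19, its transcript region (such as 5' UTR or stop codon), and a fold enrichment and a p-value that are the authors' own. How deeply the libraries were read is unknown. They held 29992 peaks in U2OS shMETTL14, 32353 in U2OS NC, 35195 in 143B shMETTL14 and 33082 in 143B NC. RNA levels, that of METTL14 included, were not analysed here. A gene with no row may have had no methylation, little RNA or shallow reads, and these cannot be told apart. Of 9 osteoblast lineage markers, 2 or 3 had a peak in each list (RUNX2, COL1A1 and SPARC), while blood, immune and endothelial markers had none and KRT14 was the only epithelial marker listed, in U2OS NC.

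Within a line, a peak counts as shared when at least 1 bp of it, on its own strand, is covered by a peak of the other hairpin. Unshared peaks are named gained if they stand in the shMETTL14 list and lost if they stand in the NC list, which says where they are listed and not that methylation changed. Peaks of 1 gene that overlap were also joined over all 4 lists, which gave 15 stretches for the 8 listed genes. Of these stretches, 7 were listed in all 4 lists (46.7%), against 30.2% of the 18923 stretches of all genes. The 7 lay on 6 genes, FOSL1, JUN, JUNB, EGR1, IER2 and MYC. For comparison, 47.3% of all listed genes had such a stretch. JUND had peaks in all 4 lists as well, but at no stretch shared by all of them. Peaks in every list were held by 7 of the 8 listed genes, against 51% of all listed genes. The peaks of these genes were also wider, with a median of 269 to 509 nt per list, against 209 to 236 nt for all peaks. Per list, 57.7% to 89.5% of them had a p-value at or below the list's median. Whether the higher shares go with width or p-value was not tested.

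**Figure D1:**
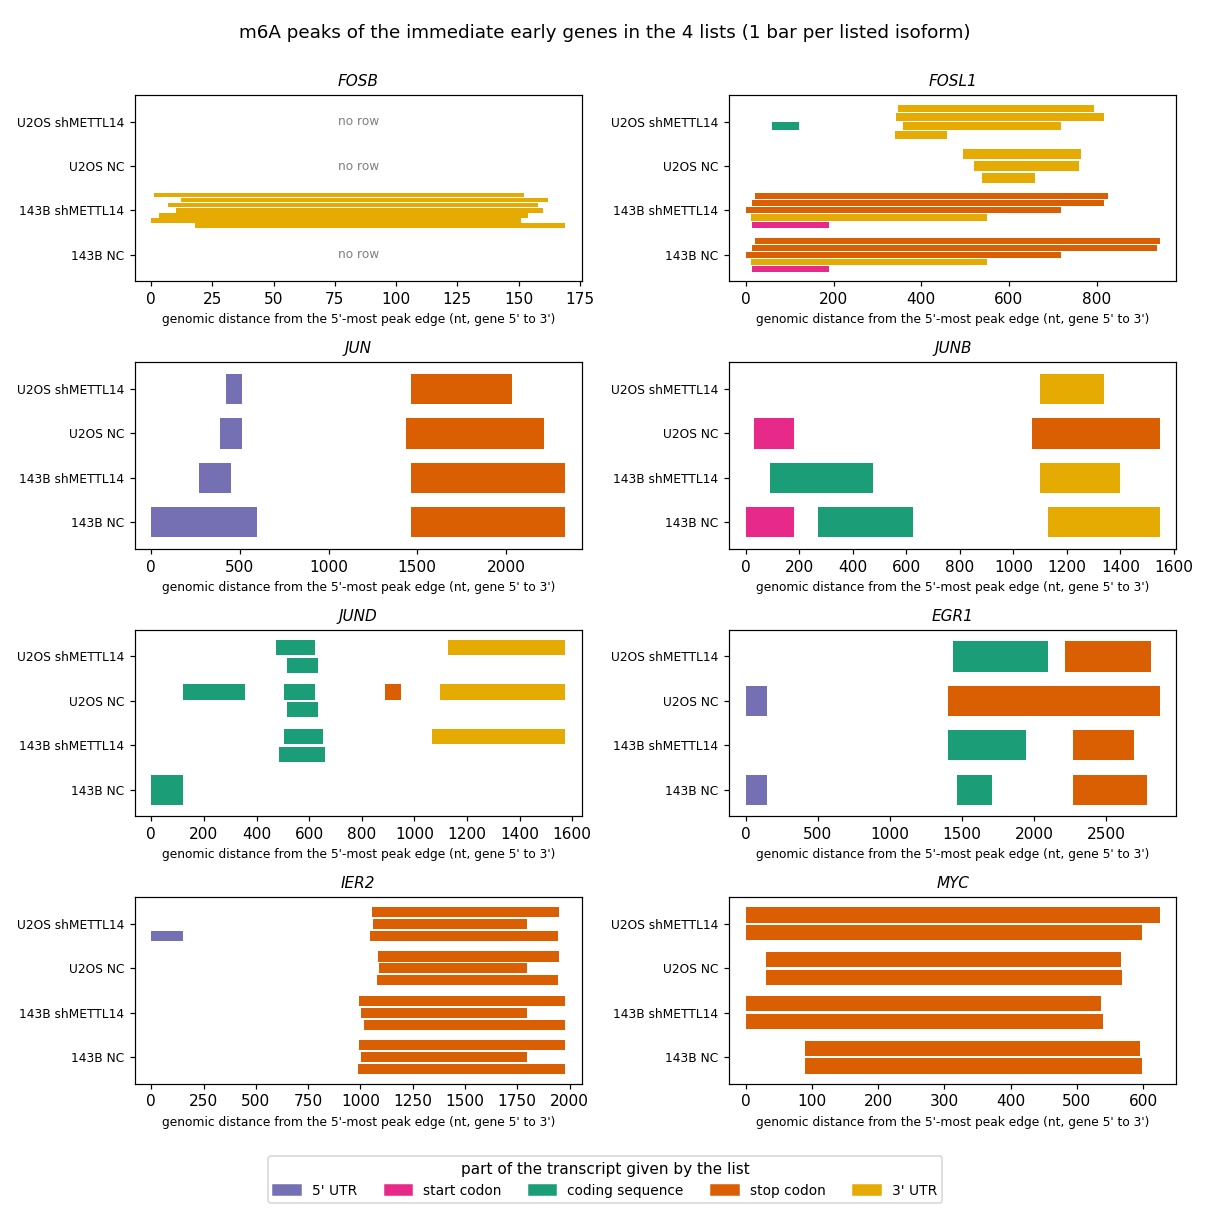
Peaks of the 8 listed genes in the 4 lists, drawn by genomic distance in nt from the outermost 5' peak edge of each gene, with 1 bar per listed isoform. Colours give the part of the transcript named in the list. FOSB has bars in 143B shMETTL14 only, the stop codon stretches of JUN, EGR1, IER2 and MYC have bars in every list, and JUND has no stretch with bars in every list.

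Of FOS, FOSB and FOSL1, only FOSL1, which encodes FRA-1, was listed in more than 1 list. FOSL1 peaks lay in a single stretch on chromosome 11, between 65659721 and 65660664 on the minus strand, and most were labelled stop codon or 3' UTR. On its longest listed isoform (ENST00000312562.2, 1669 nt), the U2OS peak was 447 nt wide with shMETTL14 and 269 nt with NC, and lay within the 3' UTR in both lists. In 143B the peak on this isoform was 805 nt wide with shMETTL14 and 924 nt with NC, and crossed the stop codon in both. Fold enrichments on this isoform were 3.96 with shMETTL14 and 4.21 with NC in U2OS, and 2.89 with shMETTL14 and 2.95 with NC in 143B. All 4 values lay in the middle or lower part of their lists. The p-values, in contrast, were among the smallest of the 143B lists, at 1e-256 with shMETTL14 and 1e-228 with NC, against 5.01e-18 and 9.12e-10 in the U2OS lists with shMETTL14 and NC. In 143B shMETTL14, 99.5% of all peaks had a larger p-value than this peak, and in 143B NC 99.6%.

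FOSL1 had 5 peaks with shMETTL14 and 3 with NC in U2OS, and 5 in each 143B list. The additional U2OS shMETTL14 peaks were a 61 nt peak in the coding sequence of ENST00000531493.1 (65660544 to 65660604, fold enrichment 2.22) and a 120 nt peak in the 3' UTR of ENST00000532401.1 (65660205 to 65660324, fold enrichment 2.76). Neither overlapped a U2OS NC peak, so both count as gained, and both had p-values above the list's median. The second lay within 100 bp of an NC peak. Both places are covered by the long 143B peaks of either hairpin. Both 143B lists also label a 176 nt peak as start codon on the 584 nt isoform ENST00000534222.1 (65660475 to 65660650). Its fold enrichment was 1.59 with shMETTL14 and 1.38 with NC, and with NC it had no U2OS partner.

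FOSB, whose protein can replace FOS in AP-1, was listed in 143B shMETTL14 and in none of the other lists. The 7 FOSB rows are 7 isoforms of a single place in the 3' UTR, 45976338 to 45976506 on the plus strand of chromosome 19. Each row is 150 or 151 nt wide, and the starts differ by at most 18 nt. Fold enrichments ran from 15.5 to 18.8, above at least 96.2% of that list's peaks. The p-values ran from 3.02e-05 to 0.00024, and only 21.4% to 34.6% of the list's peaks had a larger one. The folds took 4 distinct values, each 1.1 from the next, so they move in coarse steps. A peak in the 143B shMETTL14 list and in no other was seen for 530 of 8758 genes (6.05%). Among the other pathway genes fixed for comparison, ATF2, an AP-1 partner, was alone in having this pattern over the 4 lists.

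FOS itself, the founding AP-1 gene, had no row under its symbol or a synonym known to RefSeq. The same held for ATF3, a stress-induced AP-1 partner. Of 57 other pathway genes, 12 likewise had no row, among them EGR2, EGR3, EGR4, MYCN, NR4A2 and NR4A3.

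JUN had the same 2 stretches in every list and no lost or gained peak under the 1 bp rule. With 50% of each peak required to overlap, JUN lost 1 and gained 1 peak in 143B. JUN is a gene without introns on the minus strand of chromosome 1, listed as a single isoform of 3321 nt. The stop codon peak lay at 59247362 to 59247931 in U2OS shMETTL14 and at 59247183 to 59247960 in U2OS NC. In both 143B lists it had identical edges, 59247063 to 59247931. Its fold enrichment was 5.59 with shMETTL14 and 5.76 with NC in U2OS, and 6.77 with shMETTL14 and 5.72 with NC in 143B. This peak stood among the strongest of every list by p-value, with 98.0% to 99.6% of the list's peaks behind it.

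The second JUN stretch lay in the 5' UTR, between 59248798 and 59249396. Its peaks were 90 nt with shMETTL14 and 120 nt with NC in U2OS, and 180 nt with shMETTL14 and 599 nt with NC in 143B. Fold enrichments were 1.96 in both U2OS lists, and 1.99 with shMETTL14 and 1.90 with NC in 143B, in the lower 10.6% of each list. The distance between the 5' UTR peak and the stop codon peak was 956 nt with shMETTL14 and 927 nt with NC in U2OS, and 1016 nt with shMETTL14 and 866 nt with NC in 143B. The authors' p-values were 0.000174 with shMETTL14 and 0.000204 with NC in U2OS, and 1.74e-06 with shMETTL14 and 7.59e-10 with NC in 143B. The 5' UTR peak was thus listed in all 4 lists at a low fold, while its edges, width and p-value varied between them.

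JUNB, a JUN relative that often restrains JUN, had peaks at its 3' end in all 4 lists. On the plus strand of chromosome 19, this peak lay at 12903648 to 12903886 in U2OS shMETTL14 and at 12903618 to 12904094 in U2OS NC. In 143B it lay at 12903648 to 12903946 with shMETTL14 and at 12903678 to 12904094 with NC. The shMETTL14 peaks were 239 nt (U2OS) and 299 nt (143B) wide, against 477 nt and 417 nt with NC. Fold enrichments were 2.87 with shMETTL14 and 5.14 with NC in U2OS, and 2.86 with shMETTL14 and 3.59 with NC in 143B. The U2OS NC peak was listed as crossing the stop codon and the others as 3' UTR. The U2OS NC peak started 30 nt upstream of the peaks of both shMETTL14 lists, and by the lists' labels the stop codon lies within those 30 nt.

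The 5' part of JUNB was listed in 3 lists. U2OS shMETTL14 had no peak there, and U2OS NC had a 149 nt peak across the start codon (12902578 to 12902726, fold enrichment 2.10, p-value 0.00011). In 143B shMETTL14 the peak there was 388 nt wide in the coding sequence (12902637 to 12903024, fold enrichment 2.02). With 143B NC there were 2 peaks, a 179 nt peak across the start codon and a 357 nt peak in the coding sequence, at fold enrichments of 3.09 and 3.53. The 143B shMETTL14 peak overlapped both of these NC peaks, so no JUNB peak counts as lost or gained in 143B under the 1 bp rule. With 50% of each peak required to overlap, JUNB lost 1 peak in 143B.

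JUND, the AP-1 subunit that is expressed most constantly in many tissues, had the most uneven picture. Its peaks lay on the minus strand of chromosome 19 in 4 stretches, all of them listed in U2OS NC and 3 of them in at least 1 other list. With shMETTL14, U2OS listed a coding peak (18391542 to 18391690) and a 3' UTR peak (18390593 to 18391038). With NC, U2OS listed both of these places, a coding peak nearer the 5' end (18391809 to 18392046) and a 60 nt peak across the stop codon (18391216 to 18391275, fold enrichment 1.60, p-value 0.000977). The last 2 count as lost.

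In 143B, the JUND peaks with shMETTL14 lay at 18391512 to 18391661 in the coding sequence and at 18390593 to 18391097 in the 3' UTR. The NC list held 1 JUND peak, at 18392046 to 18392165 in the coding sequence, with a fold enrichment of 5.48 and a p-value of 0.000102. All 3 JUND peaks of 143B shMETTL14 therefore count as gained and the NC peak as lost. The 2 gained places are the ones listed with both hairpins in U2OS. The 143B NC peak touches the lost U2OS NC coding peak by 1 bp, so the joining of these 2 into a stretch listed with NC in both lines rests on that base. The 3' UTR peak had its 3' edge at 18390593 in the 3 lists that held it, while its 5' edge differed. Its fold enrichments were 2.96 with shMETTL14 and 4.09 with NC in U2OS and 3.01 with shMETTL14 in 143B.

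EGR1 had a stretch over the coding sequence and stop codon in all 4 lists, and a 5' UTR peak with NC in both lines. On the plus strand of chromosome 5, the 5' UTR peak had the same edges in U2OS NC and 143B NC, 137801239 to 137801388, and no counterpart in either shMETTL14 list. Its fold enrichment was 5.14 in U2OS NC and 13 in 143B NC. The p-values were 2.19e-06 and 0.000148, near the middle of the U2OS NC list and in the weaker part of the 143B NC list. A stretch listed with NC in both lines and with shMETTL14 in neither made up 366 of all 18923 stretches (1.93%). Among the 15 stretches here there were 2, this one and the JUND stretch that rests on 1 bp.

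The 3' stretch of EGR1 was split into a coding peak and a stop codon peak in 3 lists and was a single peak of 1465 nt in U2OS NC. In U2OS shMETTL14 these peaks were 658 nt and 599 nt wide with 118 nt between them. In 143B the coding peak was 539 nt wide with shMETTL14 and 240 nt with NC, and the stop codon peak 419 nt with shMETTL14 and 509 nt with NC. The stop codon peak had fold enrichments of 5.06 with shMETTL14 and 6.48 with NC in U2OS, and 5.23 with shMETTL14 and 7.35 with NC in 143B. The U2OS NC value is that of the single long peak. Under the 1 bp rule every peak of this stretch is shared between hairpins.

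IER2, a short-lived nuclear regulator of transcription, carried a broad peak across its stop codon in every list. The peak was listed for 3 isoforms, on the plus strand of chromosome 19 between 13264256 and 13265246. On ENST00000292433.3 it was 894 nt wide with shMETTL14 and 864 nt with NC in U2OS, and 984 nt with identical edges in both 143B lists. Fold enrichments on this isoform were 5.08 with shMETTL14 and 4.26 with NC in U2OS, and 6.47 with shMETTL14 and 5.24 with NC in 143B. The p-values in 143B were 1e-115 with shMETTL14 and 2.51e-62 with NC, smaller than those of at least 97.2% of the peaks in either list. U2OS shMETTL14 alone also listed a 151 nt peak in the 5' UTR of the longest isoform (13263268 to 13263418). Its fold enrichment of 21.8 was the highest of the 83 peaks, above 99.1% of its list, while its p-value of 4.37e-06 lay just above that list's median of 2.51e-06.

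MYC had a single stretch, across the stop codon, in all 4 lists and on 2 isoforms. On chromosome 8 and on ENST00000377970.2, the peak lay at 128752962 to 128753585 in U2OS shMETTL14 and at 128752992 to 128753526 in U2OS NC. In 143B it lay at 128752962 to 128753496 with shMETTL14 and at 128753051 to 128753555 with NC. The widths were 624 nt with shMETTL14 and 535 nt with NC in U2OS, and 535 nt with shMETTL14 and 505 nt with NC in 143B. Fold enrichments were 4.84 and 4.90 on the isoforms with shMETTL14 and 8.69 and 8.71 with NC in U2OS. In 143B they were 6.93 on both isoforms with shMETTL14, and 11 and 17.0 with NC.

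Within their own lists, these MYC folds lay above 71.6% and 71.9% of the peaks in U2OS shMETTL14, against 92.2% in U2OS NC. In 143B they lay above 84.6% with shMETTL14 and above 93.2% and 97.2% with NC. The p-values were 6.31e-62 with shMETTL14 and 7.94e-39 with NC in U2OS, and 3.16e-11 with shMETTL14 and 2.51e-32 with NC in 143B. By p-value the order of the hairpins thus differed between the lines, whereas the shMETTL14 fold was the lower number in both. The folds come from separately made lists without replicates, and the difference was not tested. The 143B NC peaks on the isoforms end 3 nt apart and differ 1.55 times in fold. In the lists other than 143B NC, the MYC folds differed between isoforms by at most 1.01 times. Among isoform rows joined into a single stretch in a single list, folds differed by up to 2.17 times (FOSL1 in 143B NC). Those FOSL1 rows differ in place and width, a 176 nt start codon peak at 1.38 and a 922 nt stop codon peak at 2.99.

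**Figure D2:**
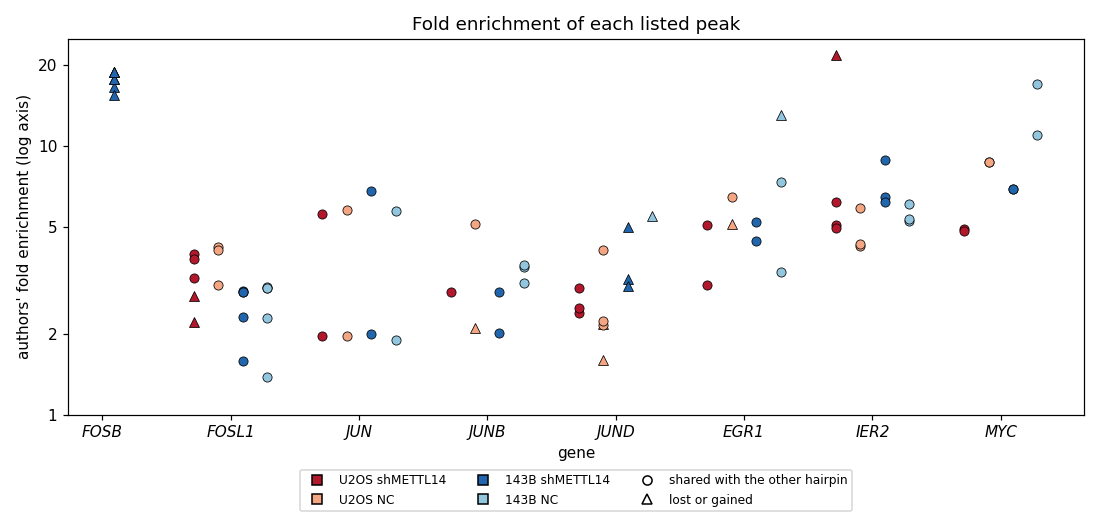
The authors' fold enrichment (log axis) of each listed peak, by gene and list. Circles are peaks shared with the other hairpin of the line, triangles lost or gained peaks. FOSB in 143B shMETTL14, the 5' UTR peaks of IER2 (21.8) and of EGR1 in 143B NC (13), and MYC in 143B NC hold the highest values.

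Where the same isoform and stretch had 1 peak with each hairpin, the peaks could be set side by side, for 13 isoform and stretch combinations in U2OS and 13 in 143B. The 3' stretch of EGR1 is not among them, since it had 2 peaks in at least 1 list of each line. The part of the transcript was the same in 12 of the 13 in U2OS, JUNB being the exception, and in all 13 in 143B. In U2OS the shMETTL14 peak was the wider in 8, the narrower in 4 and equal in 1. In 143B it was the wider in 2, the narrower in 5 and equal in 6. The fold was higher with shMETTL14 in 5, lower in 7 and equal in 1 in U2OS, and higher in 7 and lower in 6 in 143B. The edge with the lower genomic coordinate differed by 0 nt or a multiple of 30 nt, to within 1 nt, in all 26. Small differences in that edge are thus of the size of the lists' own steps. It is the 3' edge for genes on the minus strand, and the opposite edge was not counted in this way. Isoforms of 1 gene share their reads and are not independent, so these are counts of isoform rows and not of places. The same counts were not made over all genes, so they cannot show a trait of these genes.

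Over all 10 genes, the share of gained and lost peaks lay near that of the whole lists, given its wide interval. In U2OS, 3 of 19 shMETTL14 peaks were gained (15.8%, exact Clopper-Pearson 95% interval 3.38 to 39.6), against 20.9% of all peaks. These were the 2 FOSL1 peaks and the IER2 5' UTR peak. Of the 19 NC peaks of U2OS, 4 were lost (21.1%, interval 6.05 to 45.6), against 26.9% of all. They were the JUNB start codon peak, the EGR1 5' UTR peak and 2 JUND peaks. The intervals reflect counting alone, as if isoform rows were independent.

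In 143B, 10 of 26 shMETTL14 peaks were gained (38.5%, interval 20.2 to 59.4), against 27.3% of all peaks. FOSB gave 7 of them at a single place and JUND 3. Joined to sites within the list, 3 of 12 were gained (25.0%), against 32.0% of all sites, so the order against the whole list depends on counting isoform rows or sites. Of the 19 NC peaks of 143B, 2 were lost (10.5%, interval 1.30 to 33.1), against 20.7% of all, namely the EGR1 5' UTR peak and the JUND coding peak. JUN and MYC had no lost or gained peak in either line, and for MYC this held under every alternative overlap, selection and unit tried. Most listed genes had none in any 1 comparison. A gained peak was seen for 2326 of 6092 genes in U2OS and 3223 of 6916 in 143B. A lost peak was seen for 2931 of 6426 genes in U2OS and 2529 of 6621 in 143B. The share of all genes with none in either line was not counted. Whole genes with a peak under a single hairpin of a line made up 15.5% of the genes listed in 143B shMETTL14, and FOSB was the only such gene among the 10. None of the 10 was listed with NC and not with shMETTL14 in 143B (11.8% of all NC genes), and in U2OS none was listed with a single hairpin, against 12.4% of all shMETTL14 genes and 16.9% of all NC genes.

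**Figure D3:**
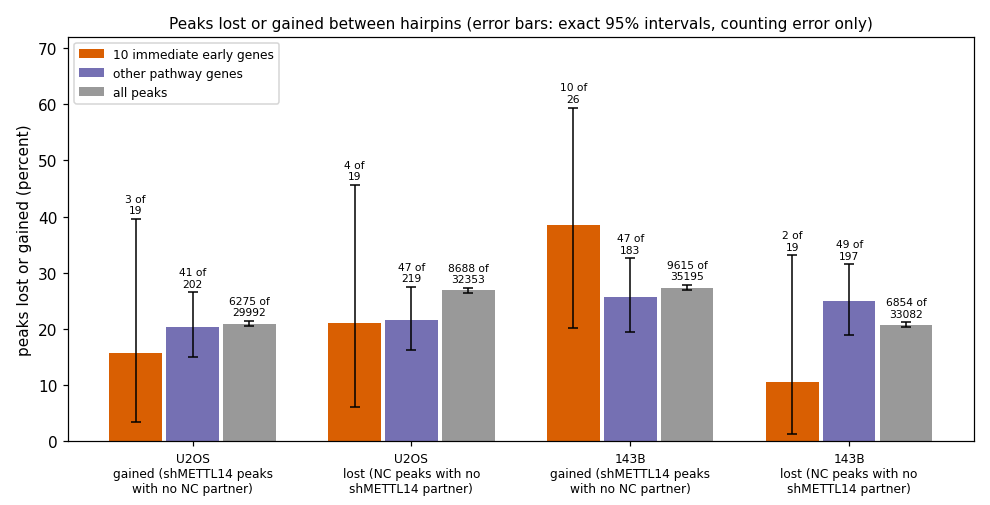
Percent of peaks gained (shMETTL14 peaks with no NC partner) or lost (NC peaks with no shMETTL14 partner) in each line, for the 10 immediate early genes, the other pathway genes and all peaks, with exact 95% intervals and counts. The interval of the 10 genes holds the value of all peaks in each of the 4 comparisons.

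Lost and gained peaks were mostly weak by p-value. Of the 19 lost or gained peaks of these genes, 3 had a p-value at or below their list's median (15.8%), against 55 of the 64 shared peaks (85.9%). Over all genes the same held for 9.75% of lost or gained peaks and 62.8% of shared ones. The 3 were the JUND coding peak (1.86e-06) and the EGR1 5' UTR peak of U2OS NC, and the JUND 3' UTR peak of 143B shMETTL14 (4.47e-07). Fold enrichments of the lost and gained peaks ran from 1.60 to 21.8, and those of the shared peaks from 1.38 to 17.0. Widths ran from 60 to 505 nt among the lost and gained peaks and from 90 to 1465 nt among the shared ones.

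**Figure D4:**
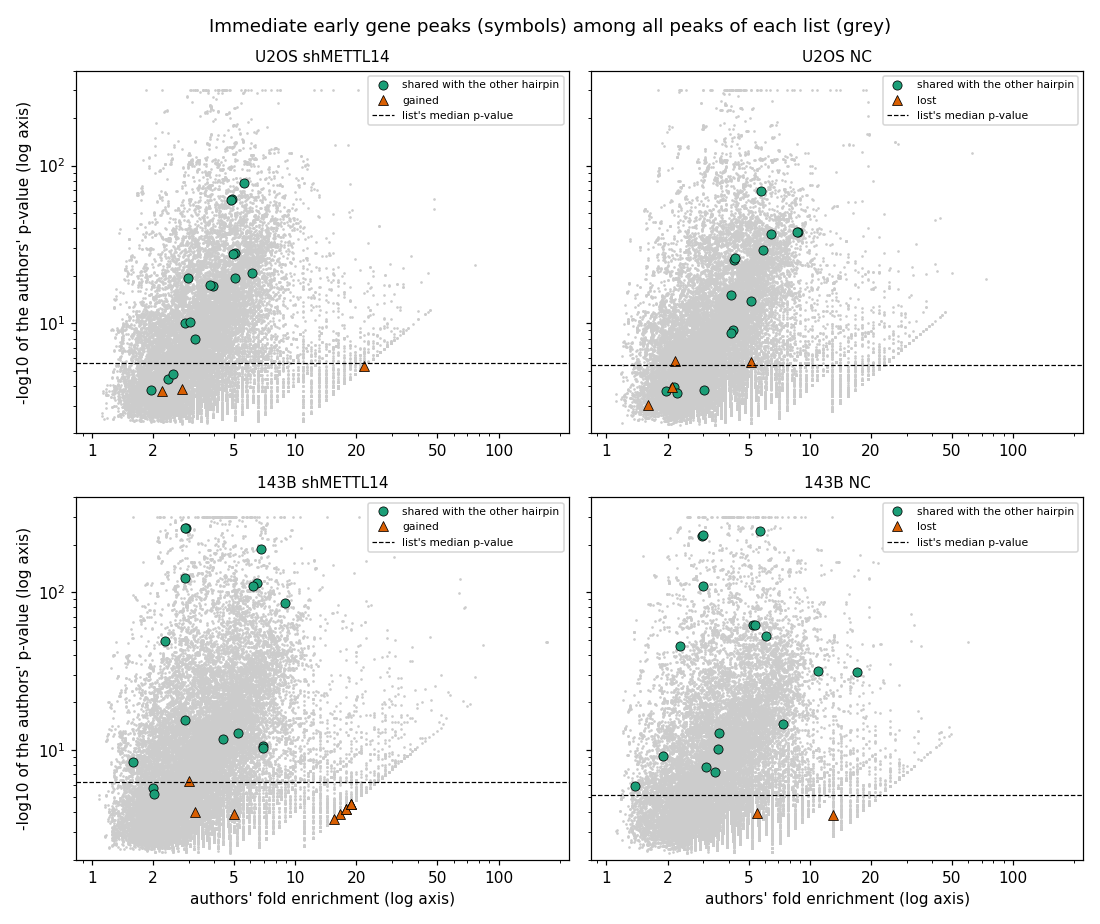
The authors' fold enrichment against -log10 of their p-value (both on log axes) for all peaks of each list in grey, with the immediate early gene peaks as circles (shared) or triangles (lost or gained). A p-value listed as 0 is drawn at the top of the axis and the dashed line is the list's median. Of the 19 triangles, 3 lie on or above the line.

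Peaks across the stop codon made up a larger share of these genes' peaks than of each whole list, a description without a test since isoform rows repeat a place. They were 7 of 19 in U2OS shMETTL14 and 9 of 19 in U2OS NC, against 15.7% of all peaks in either list. In 143B they were 10 of 26 with shMETTL14 and 10 of 19 with NC, against 16.6% and 16.3% of all. Peaks within the 3' UTR were 6 of 19 with shMETTL14 and 4 of 19 with NC in U2OS, and 10 of 26 with shMETTL14 and 2 of 19 with NC in 143B, where FOSB gave 7 of the 10. By isoform rows, the 3' UTR share in U2OS was 31.6% with shMETTL14 and 21.1% with NC, against 22.4% and 22.7% of all peaks. In 143B it was 38.5% with shMETTL14 and 10.5% with NC, against 25.0% of all peaks in either list. The FOSB rows are a single place, and without them the 143B shMETTL14 share would lie below that of all peaks. The order of the hairpins was not tested. Coding peaks numbered 3 or 4 per list (15.4% to 21.1%), against up to 54.2% of all peaks of a list. All 83 peaks consisted of a single block, whereas 34.5% to 39.2% of all peaks had more than 1 block. JUN, JUNB and JUND are genes without introns.

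**Figure D5:**
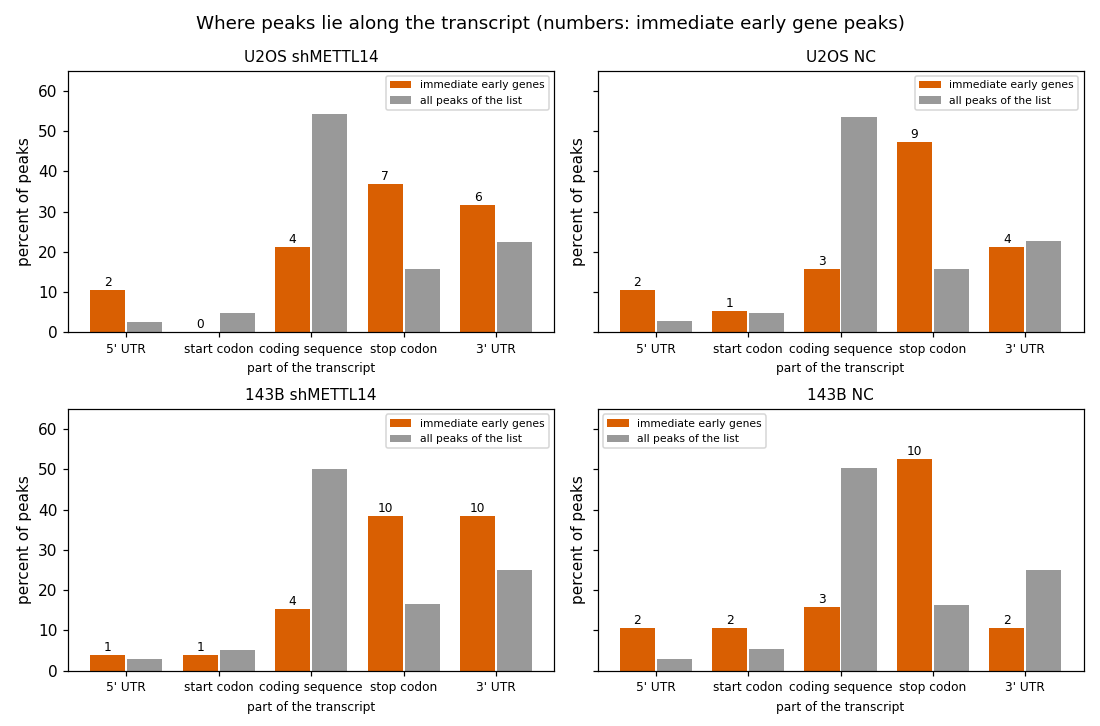
Percent of peaks in each part of the transcript, for the immediate early genes (orange, with the number of peaks) and all peaks of the list (grey). Stop codon peaks make up 36.8% to 52.6% of the immediate early gene peaks and 15.7% to 16.6% of all peaks.

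Between the cell lines, most peaks of these genes were shared, as were most of all peaks. The counts are of isoform rows, and the 7 FOSB rows are a single place. With shMETTL14, 1 of 19 U2OS peaks had no 143B partner (IER2 5' UTR), against 22% of all U2OS peaks. Of the 26 peaks of 143B shMETTL14, 8 had no U2OS partner, the 7 of FOSB and the 5' peak of JUNB, against 34.6% of all. With NC, 4 of 19 U2OS peaks had no 143B partner, all on JUND, against 30.2% of all. Of the 19 peaks of 143B NC, 2 had no U2OS partner, on FOSL1 and JUNB, against 31.4% of all.

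Other genes of the same circuits were described from a fixed list of 57 genes, of which 45 had a row. A stretch in all 4 lists was held by 29 of them. In U2OS, 41 of their 202 shMETTL14 peaks were gained (20.3%) and 47 of their 219 NC peaks lost (21.5%). In 143B, 47 of 183 were gained (25.7%) and 49 of 197 lost (24.9%). These shares stand beside 20.9% and 26.9% of all peaks gained and lost in U2OS and 27.3% and 20.7% in 143B.

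AP-1 partners gained 1 of 34 peaks and lost 2 of 32 in U2OS, and gained 9 of 28 and lost 7 of 27 in 143B. The U2OS changes lay on the small MAF protein MAFG (1 peak with shMETTL14 and 0 with NC) and on MAF (8 peaks in each list, 2 lost), while MAFF kept all 5. In 143B, ATF7, a relative of ATF2, had 4 peaks with shMETTL14 and 2 with NC at places that do not overlap, FOSL2 gained 2 of 9, and MAFF had 5 with shMETTL14 and 9 with NC, of which 4 were lost. The ATF7 rows of each hairpin lay at 1 site, and so did the lost MAFF rows. BATF3 kept its single peak. Of the corepressors of EGR1, NAB1 had 20 peaks in each U2OS list and 18 in each 143B list, with 1 gained in U2OS and none lost. NAB2 had 6 peaks with shMETTL14 and 9 with NC in U2OS, and 6 with shMETTL14 and 3 with NC in 143B.

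The MYC network gained 16 of 53 peaks and lost 21 of 68 in U2OS, and gained 15 of 45 and lost 22 of 62 in 143B. MGA, a large MAX partner, gave 14 of the U2OS losses and none of the gains there, and 16 of the losses and 11 of the gains in 143B. It had 24 peaks with shMETTL14 and 48 with NC in U2OS and 29 with shMETTL14 and 40 with NC in 143B. Those peaks lie on several isoforms, and the MGA losses join to 2 sites in U2OS and 3 in 143B. MAX, the obligate partner of MYC, had 11 peaks with shMETTL14 and 5 with NC in U2OS, and 5 with shMETTL14 and 9 with NC in 143B, none of them lost in either line. MXD3, a MAX partner that opposes MYC, had 1 peak with shMETTL14 and 5 with NC in U2OS, and 1 with shMETTL14 and 6 with NC in 143B. In U2OS, MLX had 3 peaks with shMETTL14 and 0 with NC, and MXI1 had 10 with shMETTL14 and 4 with NC, of which 7 were gained and 1, with a fold enrichment of 12.8, was lost. The 3 gained MLX rows lay at 1 site, and so did the 7 gained MXI1 rows. In 143B, MLX kept all 3. MYCL had 0 peaks with shMETTL14 and 2 with NC in U2OS, and 1 with shMETTL14 and 0 with NC in 143B. MLXIP kept all 4 in U2OS and gained 1 of 4 in 143B.

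Other immediate early genes gained 12 of 45 peaks and lost 7 of 43 in U2OS, and gained 7 of 53 and lost 10 of 55 in 143B. CSRNP1 had 4 peaks with shMETTL14 and 2 with NC in U2OS, and 4 with shMETTL14 and 0 with NC in 143B. ZFP36, which encodes a decay factor for AU-rich messenger RNAs, had 2 peaks with shMETTL14 and 0 with NC in U2OS, and 4 with shMETTL14 and 3 with NC in 143B, of which 2 were gained and 1 lost. The kinase gene PIM1 had 0 peaks with shMETTL14 and 1 with NC in U2OS, and BTG1 had 3 with shMETTL14 and 2 with NC there, of which 2 were gained and 1 lost. BTG2 had 3 with shMETTL14 and 2 with NC in U2OS, and 0 with shMETTL14 and 1 with NC in 143B. ZFP36L1 had 12 with shMETTL14 and 13 with NC in U2OS, with 2 gained and 2 lost, and 11 with shMETTL14 and 13 with NC in 143B, with 4 lost. IER5L kept its places in both lines.

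Upstream factors gained 11 of 44 peaks and lost 14 of 47 in U2OS, and gained 13 of 33 and lost 10 of 32 in 143B. SRF, the factor that binds serum response elements of FOS and EGR1, had 5 peaks with shMETTL14 and 3 with NC in U2OS, and 3 in each 143B list, with 2 gained in U2OS and none lost. Its coactivator genes MKL1 and MKL2 gained 6 and 3 peaks in U2OS and 4 each in 143B, and MKL2 also lost 2 in U2OS and 5 in 143B. ELK1, a ternary complex partner of SRF, had 0 peaks with shMETTL14 and 3 with NC in each line. In each line the 3 ELK1 rows lay at 1 site. Peaks with NC in both lines and with shMETTL14 in neither were seen for 135 of 8758 genes (1.54%). CREB1 had 4 peaks with shMETTL14 and 14 with NC in U2OS, of which 7 were lost, and 7 with shMETTL14 and 4 with NC in 143B, of which 2 were gained. The 7 lost CREB1 rows lay at 1 site, and the 2 gained rows at 1 site. ELK3 kept both of its U2OS peaks, and had 4 with shMETTL14 and 1 with NC in 143B, of which 3 were gained.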

How the data were processed

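MeRIP-seq peak lists of 4 pulled-down libraries were analysed, 1 per group, and the 4 input libraries have no list of their own here. Build hg19 and the tools HISAT2, Trimmomatic and FastQC (0.11.5) are named, per the submitters' processing notes. The sources used here give neither peak caller nor threshold, annotation or depth. The fold enrichment is a linear ratio deposited by the authors, and the p-value of each peak was deposited by the authors too. Transcript length in nt is per the file headers. The coordinate base is not stated. Because block sizes equal end minus start, starts were taken to count from 0 and are printed counting from 1; the 1 bp overlap in JUND rests on this reading too.

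Groups were taken from sample titles. Peaks were compared by their spliced blocks. Alternatives changed the overlap, the peaks, the unit and the isoforms. The 10 genes and the lists were chosen with earlier results of these data known. All 10 are named; of the other pathway genes, up to 2 gained, 2 lost and 1 kept gene per role and line with the highest fold, and those with the pattern over the lists of a gene not listed in all 4. Values in the other line for a gene so named, and SRF and ELK1 in U2OS, were chosen after they were seen. No genome of hg19 was used, so no sequence is shown. Python 3.11.15, numpy 2.4.6, pandas 2.3.3, scipy 1.17.1 and matplotlib 3.10.9 were used, and the overlap was tested on simulated lists.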

Additional observations from a re-analysis of the deposited data

Results flagged for a closer look

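The number of listed JUND sites differed between hairpins in opposite directions in the lines, when peaks were joined to sites within each list. In U2OS it had 2 sites with shMETTL14 and 4 with NC, and in 143B it had 2 with shMETTL14 and 1 with NC. Each group has 1 list, so the difference between the lines was not tested. The share of all genes with such a pattern was not counted. By peak rows, NAB2, CREB1 and MAX were among the other pathway genes that differed in opposite directions too. Of the 5 JUND peaks of U2OS NC, 2 had a p-value at or below the list's median, and the single 143B NC peak did not.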

How the results depend on the processing

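Of the 40 values recomputed for the 4 shares and for the number of genes with a stretch in all 4 lists, 37 stayed within the interval of the main share or within 1.5 times the main count. The 3 that did not came from keeping peaks with a p-value at or below the NC median of the line. Gained peaks were then 0 of 13 in U2OS (0.0%, against 15.2% of all peaks so selected) and 1 of 17 in 143B (5.88%, against 27.7%), and lost peaks 0 of 17 in 143B (0.0%, against 12.2%), since the FOSB rows, the gained FOSL1 peaks, the IER2 and EGR1 5' UTR peaks of these lists, the JUND coding peaks of 143B shMETTL14 and the 143B NC peak of JUND have larger p-values. The intervals are wide, so staying within them is a loose bound. The 143B gained share, 38.5% in the main count, was 25.0% by sites and 56.2% at or above the list's median fold, both inside. Genes with a stretch in all 4 lists numbered 6, or 5 with 50% of each peak required to overlap and 4 when peaks were kept at or above their list's median fold. Among lost and gained counts of single genes, 25 moved by over 1.5 times or to or from 0. Under 50% of each peak, EGR1 lost 2 and gained 2 peaks in U2OS and lost 2 and gained 1 in 143B, and JUN lost 1 and gained 1 in 143B. Under the same rule JUNB lost 1 peak in 143B and FOSL1 lost 1 in U2OS. No paired analysis was possible because each group has 1 list, so groups share a single replicate number, and the counts come from no test. A fit of line and hairpin over the 4 lists was not run. No replicate could be left out. Depth limits an absent row, which does not show absent methylation.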
